A study of Mus musculus with 18 samples.

Results

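The genes followed here are the 5 that mark the cholinergic neuron (Chat, Slc18a3, Slc5a7, Ache and Lhx8) and the 5 muscarinic acetylcholine receptors (Chrm1, Chrm2, Chrm3, Chrm4 and Chrm5). They were chosen by name, as the rows of the counts whose Ensembl identifiers carry these symbols, and all 10 were found among 55421 genes. The counts come from RNA sequencing of the striatum in C57BL/6 mice, each giving 1 library, at an age of 12 to 14 months. There were 5 WT mice, 5 zQ175 mice, 3 CK2a'(+/-) mice and 5 zQ175:CK2a'(+/-) mice. The zQ175 allele is a knock-in of an expanded CAG repeat into 1 copy of the mouse huntingtin gene and models Huntington's disease. CK2a'(+/-) mice lack 1 allele of Csnk2a2, which encodes the kinase subunit CK2 alpha prime, and zQ175:CK2a'(+/-) mice carry both changes. The WT and zQ175 mice keep both copies of Csnk2a2. The study compared the genotypes to ask how the kinase subunit affects the transcriptional deficits of the zQ175 striatum.

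Cholinergic interneurons are a small population of large neurons that supply the striatum with most of its acetylcholine. Choline acetyltransferase makes the transmitter, a vesicular transporter loads it, acetylcholinesterase splits it in the synaptic cleft, and a high-affinity transporter returns the choline to the terminal. The muscarinic receptors fall into a class that couples to Gq and excites (M1, M3 and M5, from Chrm1, Chrm3 and Chrm5) and a class that couples to Gi and inhibits (M2 and M4, from Chrm2 and Chrm4). In the striatum M1 is found on projection neurons of both output pathways, M4 mainly on those of the direct pathway, and M2 on the cholinergic interneurons themselves, where it acts as an autoreceptor.

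Chat (ENSMUSG00000021919, choline acetyltransferase) and Slc18a3 (ENSMUSG00000100241, the vesicular acetylcholine transporter) form 1 locus on the minus strand of chromosome 14 in GRCm38. Chat runs from 32408203 to 32465989, and Slc18a3, from 32462438 to 32464850, lies wholly within it. The exons of the pair share 0 bases, so that no exonic read could be given to both genes. The sequences before the start sites of these 2 genes are shown because the genes share a locus and a strand. That of Slc5a7 (ENSMUSG00000023945, chromosome 17, 54273590 to 54299034, minus strand), the high-affinity choline transporter, is shown because its level followed that of Chat more closely than any other gene's did. They are RefSeq sequences of GRCm38.p6, written 5′ to 3′ on the gene's strand. Each is the stretch of the 250 bases before the RefSeq start site that lies outside the gene's own exons, and capitals mark GC boxes and the cyclic AMP core TGACG, neither of which occurs before Slc5a7.
Chat, chr14:32465990-32466159, minus strand: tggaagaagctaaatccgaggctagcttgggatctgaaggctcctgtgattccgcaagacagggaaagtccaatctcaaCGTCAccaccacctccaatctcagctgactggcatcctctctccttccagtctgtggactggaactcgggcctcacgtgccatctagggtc
Slc18a3, chr14:32464851-32465100, minus strand: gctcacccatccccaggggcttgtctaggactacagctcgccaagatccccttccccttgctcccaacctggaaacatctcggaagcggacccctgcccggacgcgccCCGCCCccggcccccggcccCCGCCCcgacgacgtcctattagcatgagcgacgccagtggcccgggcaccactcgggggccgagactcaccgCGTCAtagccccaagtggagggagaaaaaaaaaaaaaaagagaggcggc
Slc5a7, chr17:54299035-54299284, minus strand: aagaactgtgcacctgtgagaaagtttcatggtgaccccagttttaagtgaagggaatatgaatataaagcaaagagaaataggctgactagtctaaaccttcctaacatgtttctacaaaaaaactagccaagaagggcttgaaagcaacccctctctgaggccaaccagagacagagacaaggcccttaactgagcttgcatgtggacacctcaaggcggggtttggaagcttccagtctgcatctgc
Over the full 250 bases, the window before Slc18a3 held 66.0% G and C, that before Chat 54.8% and that before Slc5a7 45.6%. A GC box, GGGCGG on either strand, occurred 2 times before Slc18a3 and in 4 of the 9 genes for which RefSeq gave a window (Slc18a3, Ache, Chrm2 and Chrm4), against 32.7% of 32851 windows of all genes. The cyclic AMP core, TGACG on either strand, occurred 1 time before Chat and 1 time before Slc18a3, and in no window of the other 7 genes, against 17.8% of all windows. The homeodomain core TAATTA, of the kind read by LIM homeodomain factors such as Lhx8, occurred only before Chrm5, against 4.84% of all windows. No motif that was searched overlapped another in these sequences, and a match says only that these letters are present.

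Library depth ranged from 13612381 to 22702547 counts. Levels are given as CPM, the counts of a gene scaled to a fixed library total after TMM normalisation. Csnk2a2 followed the labels, with 29.35 to 37.5 CPM in the 10 mice with both alleles and 14.7 to 19.9 CPM in the 8 mice with 1. Replicates 1 and 5 of the zQ175 mice stood apart in markers of neighbouring tissue. In zQ175 replicate 1 the summed level of 4 thalamic neuron markers was 861 CPM, against 29.3 to 394 CPM in the other 17 mice. The summed level of 12 striatal projection neuron markers in the same mouse was 1384 CPM, the lowest of the 18 (2342 to 5645 CPM in the others). In zQ175 replicate 5 the 8 cortical excitatory neuron markers summed to 351 CPM, against 50.6 to 181 CPM in the others. They are called the doubted mice here, and many values of zQ175 mice are given again without 1 or both of them.

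In WT mice the 10 genes spanned a wide range when compared per kilobase of exon. Chrm4 was at 20.3 ± 7.02 CPM per kb (mean ± SD, n = 5), Ache at 11.4 ± 1.12 and Chrm1 at 10.4 ± 1.31. A lower tier held Slc5a7 at 4.84 ± 0.925, Chat at 4.30 ± 0.511, Chrm2 at 2.74 ± 0.5002, Lhx8 at 2.51 ± 0.580, Slc18a3 at 2.18 ± 0.372 and Chrm3 at 1.75 ± 0.463 CPM per kb. Chrm5 came last at 0.504 ± 0.231 CPM per kb. Neighbours in this order overlapped between mice at every step but 2, between Chrm1 and Slc5a7 and between Chrm3 and Chrm5. The gene model of Chrm4 spans 1440 bases and begins 5060 bases past the RefSeq start site, so its per-length level counts only part of the transcript.

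**Figure D1:**
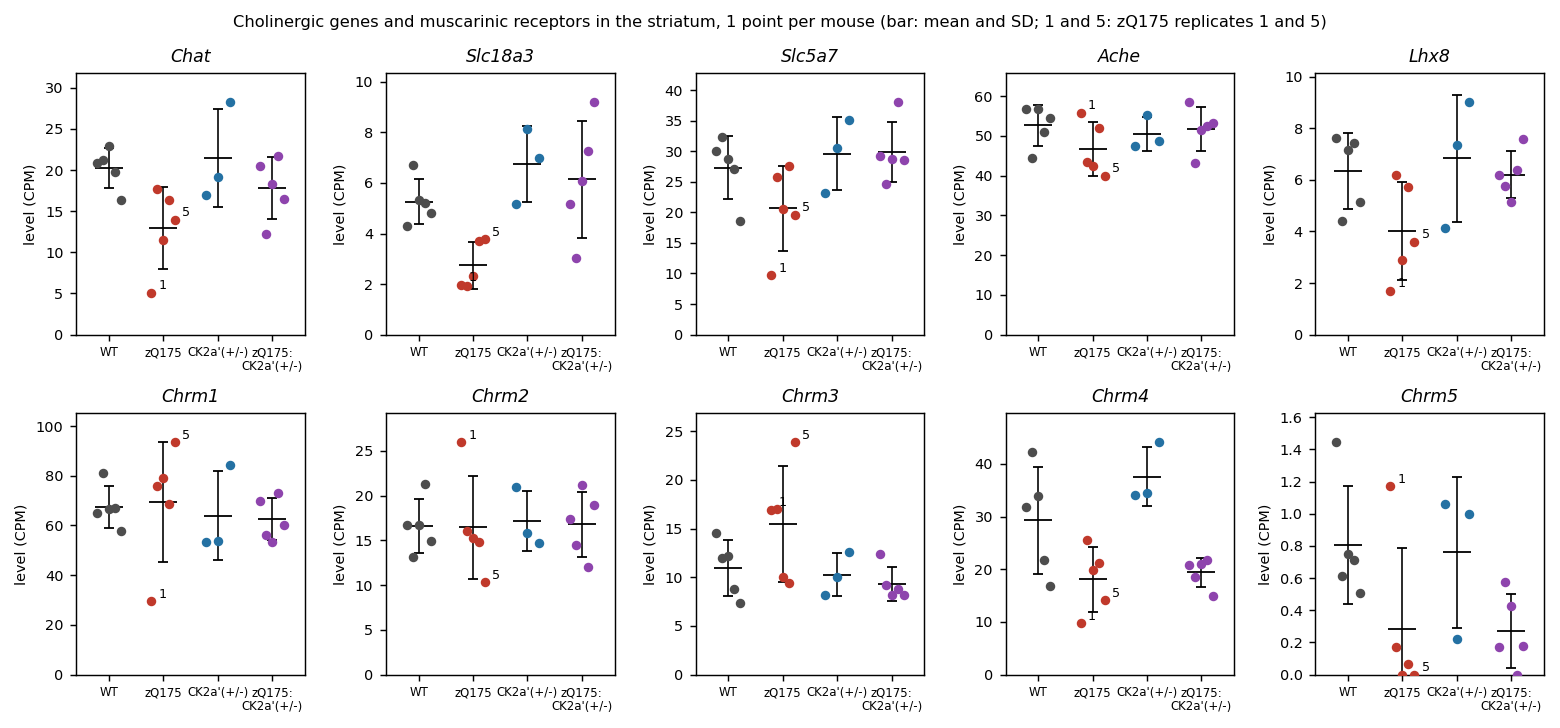
Level of each gene in CPM (y axes, from 0) in every mouse, by genotype, with 1 point per mouse and bars for the mean and SD. Slc18a3 lies between 1.91 and 3.76 CPM in the 5 zQ175 mice and between 4.29 and 6.70 CPM in the 5 WT mice, and zQ175 replicates 1 and 5 are numbered.

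The first comparison asks which of these genes differ between zQ175 and WT mice. The vesicular transporter Slc18a3 and the enzyme Chat had lower levels in zQ175 mice, as had the transcription factor Lhx8 and the receptor Chrm4, while the receptor Chrm3 had a higher level. With edgeR's quasi-likelihood test and Benjamini-Hochberg adjustment over 20914 genes, 0 of the 10 passed FDR 0.1, against 1.10% of all genes tested. At an unadjusted p under 0.05, 4 of the 10 were lower and 1 was higher, against 13.9% of all genes in either direction. DESeq2 with default settings called 3 (Slc18a3, Chrm4 and Chat), against 5.15% of the genes it tested, and edgeR without the filter on low counts called the same 3 genes, against 1.20%. Without zQ175 replicates 1 and 5, DESeq2 called 0 of the 10 (1.43% of the genes it tested, with 3 at an unadjusted p under 0.05), and edgeR without the filter called 1, Slc18a3 (1.21%). In that DESeq2 fit Chrm5 had an unadjusted p of 0.00157 but was given no adjusted p, so it could not be called. The median log2 fold change was -0.53 over the 10 genes and 0.0042 over all genes. Without both doubted mice these medians were -0.28 and -0.0097, with 0 of the 10 passing by edgeR with the filter (0.00% of all genes) and 3 lower and 0 higher at an unadjusted p under 0.05 (10.2% of all genes). The tissue is a mixture of cells, and fewer cholinergic neurons cannot be told apart from less RNA per neuron.

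Slc18a3 was at 4.29, 6.70, 5.31, 5.20 and 4.82 CPM in WT replicates 1 to 5. In zQ175 replicates 1 to 5 it was at 1.97, 1.91, 2.34, 3.69 and 3.76 CPM. All zQ175 mice lay below all WT mice, and Slc18a3 was the only 1 of the 10 genes to separate these groups. Of all genes tested, 1.19% were lower in zQ175 mice without overlap. The log2 fold change was -0.95 (SE 0.267, adjusted p = 0.116 by edgeR). It was -0.84 without zQ175 replicate 1 and -0.99 without both doubted mice. The study listed Slc18a3 among the genes that differed between zQ175 and zQ175:CK2a'(+/-) mice, from these same libraries. Its standing here is therefore not independent evidence.

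Chat was at 20.9, 21.2, 22.9, 19.8 and 16.4 CPM in WT replicates 1 to 5. In zQ175 replicates 1 to 5 it was at 5.11, 17.7, 11.5, 16.35 and 14.0 CPM. The groups overlapped, with zQ175 replicate 2 above WT replicate 5, and zQ175 replicate 1 was the lowest of all 18 mice. Chat had a log2 fold change of -0.65 (SE 0.234, adjusted p = 0.206 by edgeR), and -0.44 (SE 0.175, adjusted p = 0.285) without zQ175 replicate 1 and -0.41 without both doubted mice. Replicate 1 also had the highest thalamic and the lowest projection neuron markers, and their part in the Chat value was not tested.

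Slc5a7, which returns choline to the terminal, followed the same pattern more weakly. It was at 29.95, 32.3, 28.7, 27.1 and 18.6 CPM in WT mice and at 9.70, 25.8, 20.5, 27.6 and 19.6 CPM in zQ175 mice, in replicate order. The ranges overlapped, with zQ175 replicate 1 far below the rest, and the log2 fold change was -0.41 (SE 0.206, adjusted p = 0.387 by edgeR). It fell to -0.23 without that mouse and to -0.15 without both doubted mice. Lhx8 (ENSMUSG00000096225, chromosome 3, 154306294 to 154330659), a LIM homeodomain factor that specifies and maintains striatal cholinergic neurons, was at 7.62, 4.41, 7.15, 7.42 and 5.14 CPM in WT mice. In zQ175 mice it was at 1.69, 6.20, 2.89, 5.74 and 3.60 CPM. Here too the groups overlapped, the lowest value again being that of zQ175 replicate 1. The log2 fold change of Lhx8 was -0.66 (SE 0.284, adjusted p = 0.303 by edgeR), -0.46 without that mouse and -0.36 without both doubted mice.

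Ache (ENSMUSG00000023328, chromosome 5, 137287519 to 137294466, plus strand), which is also made by neurons that do not use acetylcholine, ranged from 44.4 to 56.7 CPM in WT mice and from 40.0 to 55.8 CPM in zQ175 mice. Its log2 fold change was -0.17 (SE 0.103, adjusted p = 0.481 by edgeR), and -0.20 without both doubted mice. In zQ175 replicate 1, where Chat, Slc5a7 and Lhx8 were lowest, Ache had its highest zQ175 value. Of its 4623 exon bases, 98 are shared with Gm42456 on the opposite strand.

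**Figure D2:**
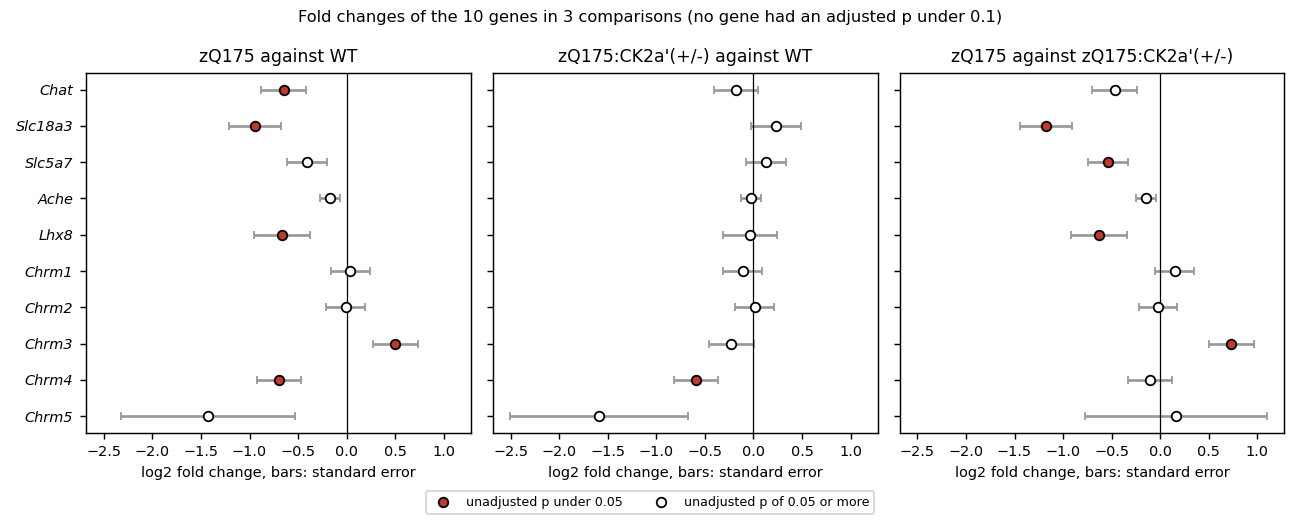
Log2 fold change (x axes) of each gene in 3 comparisons, with bars for the standard error and filled points for an unadjusted p under 0.05. Slc18a3 lies at -0.95 in zQ175 against WT mice and at -1.17 in zQ175 against zQ175:CK2a'(+/-) mice, and no gene had an adjusted p under 0.1 by edgeR with the filter on low counts and all 18 mice. DESeq2 and edgeR without that filter each called 3 genes in the first comparison and 1 in the last.

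Among the receptors, Chrm4 (ENSMUSG00000040495, chromosome 2, 91927249 to 91928688, plus strand) was at 31.8, 42.2, 33.9, 21.7 and 16.8 CPM in WT mice, in replicate order. In zQ175 mice it was at 9.70, 25.5, 19.9, 21.2 and 14.1 CPM. WT replicates 1, 2 and 3 lay above all zQ175 mice, and WT replicates 4 and 5 lay within their range. Its log2 fold change was -0.70 (SE 0.230, adjusted p = 0.169 by edgeR). It was -0.54 without zQ175 replicate 1, -0.40 without both doubted mice and -0.85 (adjusted p = 0.0948, against 1.01% of all genes) without WT replicate 5. The 12 striatal projection neuron markers moved the same way, with all 12 lower in zQ175 mice and a median log2 fold change of -0.66. Of these, Adora2a (-1.12, adjusted p = 0.0557), Penk (-1.002, adjusted p = 0.0610) and Ppp1r1b (-0.85, adjusted p = 0.0765) fell past FDR 0.1 by edgeR, and the other 9 did not pass. Without both doubted mice all 12 were still lower, with a median of -0.47, and 0 passed (6 at an unadjusted p under 0.05, against 10.2% of all genes).

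Chrm3 (ENSMUSG00000046159, chromosome 13, 9875486 to 10360847, minus strand), a receptor of the Gq class, was at 14.55, 11.95, 12.2, 8.75 and 7.32 CPM in WT mice. In zQ175 mice it was at 16.9, 16.98, 10.02, 9.43 and 23.9 CPM. Replicates 1, 2 and 5 of the zQ175 mice lay above all WT mice, and the other 2 lay within the WT range. Its log2 fold change was 0.50 (SE 0.230, adjusted p = 0.337 by edgeR). It was 0.29 without zQ175 replicate 5 and 0.15 without both doubted mice. The mouse with the highest Chrm3, zQ175 replicate 5, also had the highest cortical marker level, and the part of that in the Chrm3 value was not tested.

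Chrm1 (ENSMUSG00000032773, chromosome 19, 8663789 to 8683587, plus strand) had a mean of 69.4 ± 24.1 CPM in zQ175 mice and 67.5 ± 8.51 CPM in WT mice (SD, n = 5 each). Chrm2 (ENSMUSG00000045613, chromosome 6, 36388084 to 36528414, plus strand) had means of 16.5 ± 5.75 and 16.6 ± 3.03 CPM. Their differences were smaller than their standard errors, with log2 fold changes of 0.038 and -0.009 that became 0.15 and -0.11 without both doubted mice, and the spread among zQ175 mice was wide. In zQ175 replicate 1 Chrm1 was at 29.5 CPM, the lowest of the 18 mice, and Chrm2 at 26.0 CPM, the highest of the 18. In zQ175 replicate 5 the order was the reverse, with Chrm1 at 93.5 CPM, the highest, and Chrm2 at 10.3 CPM, the lowest. Chrm1 shares 329 exon bases with Gm22820 and Chrm2 shares 142 with 9330158H04Rik, each on the opposite strand.

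Chrm5 (ENSMUSG00000074939, chromosome 2, 112479171 to 112480769, minus strand) was near the limit of detection. WT replicates 1 to 5 held 29, 11, 11, 16 and 11 counts, zQ175 replicates 25, 3, 0, 1 and 0, CK2a'(+/-) replicates 21, 5 and 15, and zQ175:CK2a'(+/-) replicates 3, 8, 7, 0 and 3. Apart from zQ175 replicate 1, each zQ175 mouse was below each WT mouse. Chrm5 had a log2 fold change of -1.43 (SE 0.894, adjusted p = 0.505 by edgeR) with all mice and -3.61 (SE 0.972, adjusted p = 0.121) without zQ175 replicate 1, so 1 library decided its size. A count of 0 allows up to 3 counts, which is 0.184 CPM in zQ175 replicate 3, 0.161 CPM in zQ175 replicate 5 and 0.159 CPM in zQ175:CK2a'(+/-) replicate 4. These limits cover counting error only.

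The next comparisons ask where mice with the zQ175 allele and 1 copy of Csnk2a2 stand. In zQ175:CK2a'(+/-) mice the genes of the cholinergic neuron were near their WT levels, whereas the mean of Chrm4 was close to that in zQ175 mice. Against WT mice, 0 of the 10 genes passed FDR 0.1 by edgeR (0.0143% of all genes) or by DESeq2 (0.722%), and 1 gene, Chrm4, had an unadjusted p under 0.05 (9.13% of all genes), joined by Chrm5 without both doubted mice (10.3%). Between zQ175 and zQ175:CK2a'(+/-) mice, 0 of the 10 passed by edgeR (0.0143%). At an unadjusted p under 0.05, 3 were lower in zQ175 mice (Slc18a3, Slc5a7 and Lhx8) and 1 was higher (Chrm3), against 6.27% of all genes. DESeq2 called 1 gene, Slc18a3 (0.146% of the genes it tested), and edgeR without the filter called the same gene (0.136%). Without zQ175 replicates 1 and 5, DESeq2 called 0 (0.0879%, with 1 at an unadjusted p under 0.05), and edgeR without the filter called Slc18a3 (0.341%), which was also the 1 of the 10 at an unadjusted p under 0.05 by edgeR with the filter (4.50%). The 2 comparisons with zQ175 mice use the same 5 libraries, so their values are not independent of each other.

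Slc18a3 was at 5.18, 3.02, 6.06, 7.27 and 9.195 CPM in zQ175:CK2a'(+/-) replicates 1 to 5. Replicate 2 lay within the zQ175 range, and the other 4 mice lay above every zQ175 mouse. The log2 fold change of zQ175 against zQ175:CK2a'(+/-) mice was -1.17 (SE 0.268, adjusted p = 0.341 by edgeR, adjusted p = 0.0345 by DESeq2). It was -1.08 without zQ175 replicate 1 and -1.22 without both doubted mice. The study listed Slc18a3 from this same comparison with DESeq2, so the DESeq2 value repeats the test that picked the gene. Mean levels of Slc18a3 were 6.14 ± 2.31 CPM in zQ175:CK2a'(+/-) mice and 5.26 ± 0.899 CPM in WT mice (SD, n = 5 each), a difference smaller than its standard error.

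Chat was at 20.5, 12.2, 18.25, 21.7 and 16.5 CPM in zQ175:CK2a'(+/-) mice, in replicate order. These values overlapped those of zQ175 mice, and the log2 fold change of zQ175 against zQ175:CK2a'(+/-) mice was -0.47 (SE 0.234, adjusted p = 0.817 by edgeR), or -0.26 without zQ175 replicate 1. Slc5a7 was at 29.3, 24.7, 28.8, 38.0 and 28.6 CPM, with a log2 fold change of zQ175 against zQ175:CK2a'(+/-) mice of -0.54 (SE 0.206, adjusted p = 0.659 by edgeR). Lhx8 ranged from 5.14 to 7.57 CPM in zQ175:CK2a'(+/-) mice, with a log2 fold change of -0.63 (SE 0.285, adjusted p = 0.758 by edgeR). Without zQ175 replicate 1 these became -0.36 for Slc5a7 and -0.43 for Lhx8, and without both doubted mice -0.28 and -0.33, with Chat at -0.23. For Ache the log2 fold change was -0.15 (SE 0.103, adjusted p = 0.871 by edgeR).

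Chrm3 was at 12.4, 9.19, 8.14, 8.76 and 8.17 CPM in zQ175:CK2a'(+/-) mice, and only replicate 1 reached into the zQ175 range. Its level in zQ175 mice was higher, with a log2 fold change of 0.73 (SE 0.232, adjusted p = 0.591 by edgeR), which became 0.51 without zQ175 replicate 5 and 0.38 without both doubted mice. The 8 cortical markers had summed levels of 100.9 to 351 CPM in zQ175 and 55.0 to 105 CPM in zQ175:CK2a'(+/-) mice. Of 7 tested, 0 passed FDR 0.1 by edgeR and 4 had an unadjusted p under 0.05 (6.27% of all genes), among them Slc17a7 at 2.24 (SE 0.503, adjusted p = 0.328) and Tbr1 at 1.45 (SE 0.326, adjusted p = 0.328). The study listed both genes as differing in this comparison, from these same libraries, so their values are not independent evidence. Tbr1 passed without zQ175 replicate 1 (1.67, adjusted p = 0.0265, against 0.0288% of all genes), and the part of these markers in the Chrm3 value was not tested. Chrm4 was at 20.8, 18.45, 21.0, 21.8 and 14.9 CPM in zQ175:CK2a'(+/-) mice. Its log2 fold change against WT mice was -0.59 (SE 0.229, adjusted p = 0.433 by edgeR), and its mean of 19.4 ± 2.79 CPM lay beside 18.1 ± 6.20 CPM in zQ175 mice (SD, n = 5 each). Chrm5 had a log2 fold change of -1.59 (SE 0.916, adjusted p = 0.624 by edgeR) against WT mice, from 21 counts over 5 mice against 78.

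In CK2a'(+/-) mice, which lack 1 Csnk2a2 allele without the zQ175 allele, 0 of the 10 genes passed FDR 0.1 against WT mice by edgeR (0.0143% of all genes) or by DESeq2 (0.0293%), and 0 had an unadjusted p under 0.05 (4.48%). Slc18a3 was at 5.15, 8.14 and 7.01 CPM and Chat at 16.9, 19.2 and 28.2 CPM in these 3 mice. The log2 fold changes against WT mice were 0.36 (SE 0.294) for Slc18a3 and 0.36 (SE 0.258) for Chrm4, both with adjusted p = 0.999 by edgeR, and those of the other 8 genes were smaller than their standard errors.

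Chrm4 set zQ175:CK2a'(+/-) mice apart from CK2a'(+/-) mice. It was at 34.1, 34.5 and 44.1 CPM in CK2a'(+/-) mice, above all zQ175:CK2a'(+/-) mice, and 4.48% of all genes tested were lower in zQ175:CK2a'(+/-) mice without overlap. Chrm4 had a log2 fold change of -0.95 (SE 0.258, adjusted p = 0.143 by edgeR). Thus 0 of the 10 genes passed FDR 0.1 by edgeR (0.593% of all genes), and Chrm4 was the only 1 with an unadjusted p under 0.05 (9.19%). DESeq2 called Chrm4 (1.63% of the genes it tested), as did edgeR without the filter (0.790%) and edgeR on these 2 groups alone (2.43%). Of the projection neuron markers, Adora2a (-1.21, adjusted p = 0.0733) and Penk (-1.04, adjusted p = 0.0989) fell in the same comparison by edgeR, with all 12 markers lower. Chrm5 had a log2 fold change of -1.49 (SE 1.02, adjusted p = 0.730).

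Whether the effect of the zQ175 allele differed with the number of Csnk2a2 alleles was tested as an interaction. In that test 0 of the 10 genes passed FDR 0.1 by edgeR (0.00478% of all genes) or by DESeq2 (0.0747%), and 0 had an unadjusted p under 0.05 by edgeR (5.39%). The interaction term was largest for Slc18a3, at 0.81 on the log2 scale (SE 0.400, adjusted p = 0.916 by edgeR). Chrm3 had -0.63 (SE 0.352), Lhx8 0.53 (SE 0.431), Slc5a7 0.42 (SE 0.314), Chat 0.39 (SE 0.355) and Ache 0.21 (SE 0.157). The other 4 receptors had terms smaller than their standard errors. Without zQ175 replicate 1 the terms were 0.19 for Chat, 0.24 for Slc5a7 and 0.33 for Lhx8. Without both doubted mice they were 0.15 for Chat, 0.17 for Slc5a7, 0.23 for Lhx8, -0.28 for Chrm3, -0.55 for Chrm4 and 1.72 for Chrm5, while that of Slc18a3 was 0.86. Without zQ175 replicate 5 that of Slc18a3 was 0.96, the 1 member with an unadjusted p under 0.05 there (5.19% of all genes). A different response of these genes with 1 or 2 Csnk2a2 alleles was therefore not shown with 3 to 5 mice a group.

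Slc18a3 and Chat, read from 1 locus, were also compared as the ratio of their counts within each mouse, which does not depend on library scaling. Slc18a3 counts came to between 20.5% and 31.7% of Chat counts in WT mice and between 10.8% and 38.5% in zQ175 mice. In zQ175:CK2a'(+/-) mice they came to between 24.7% and 55.8%, the highest value being that of replicate 5. The mean log2 ratio was -1.94 ± 0.251 in WT, -2.17 ± 0.667 in zQ175 and -1.60 ± 0.471 in zQ175:CK2a'(+/-) mice (SD, n = 5 each). Zero of 3 comparisons passed an exact two-sided permutation test, in which 5 mice against 5 can reach 0.00794 at the lowest. The differences were -0.23 for zQ175 against WT (exact p = 0.548), 0.35 for zQ175:CK2a'(+/-) against WT (exact p = 0.175) and -0.58 for zQ175 against zQ175:CK2a'(+/-) mice (exact p = 0.175), with adjusted p of 0.548, 0.262 and 0.262. The ratio in zQ175 replicate 1 was the highest of its group, and without that mouse the last difference was -0.78 (exact p = 0.0476, unadjusted). Without zQ175 replicate 2, the lowest of its group, it was -0.32 (exact p = 0.349), and the first difference was 0.02625 (exact p = 0.921). Without zQ175:CK2a'(+/-) replicate 5 the second difference was 0.16 (exact p = 0.349) and the last -0.39 (exact p = 0.349).

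**Figure D3:**
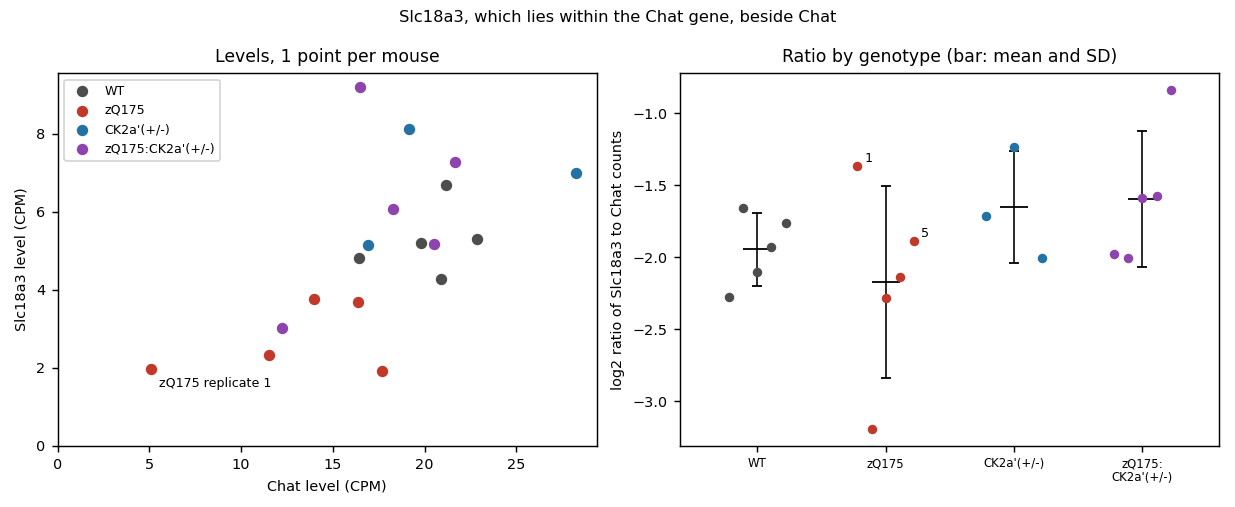
Left, level of Slc18a3 (y axis, CPM) against that of Chat (x axis, CPM), 1 point per mouse. Right, log2 ratio of Slc18a3 to Chat counts by genotype with the mean and SD, which is -2.17 in zQ175 mice and -1.60 in zQ175:CK2a'(+/-) mice with overlapping values.

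The make-up of the receptors was compared as each gene's share of the 5 receptors' summed CPM per kb. The gene models of Chrm4 and Chrm5 span 1440 and 1599 bases and those of the others 6053 to 6487, so the shares depend on these models. Without division by length, mean levels in WT mice were 67.5 CPM for Chrm1 and 29.3 CPM for Chrm4. Chrm4 held 55.6% ± 7.02 in WT mice, 43.0% ± 8.34 in zQ175 mice, 48.7% ± 3.70 in zQ175:CK2a'(+/-) mice (SD, n = 5 each) and 63.9% ± 1.35 in CK2a'(+/-) mice (SD, n = 3). The share of Chrm3 ranged from 4.13% to 6.11% in WT mice, from 5.15% to 14.2% in zQ175 mice and from 4.68% to 6.57% in zQ175:CK2a'(+/-) mice. Together the Gi-coupled receptors Chrm2 and Chrm4 held 57.6% to 68.0% in WT mice and 38.7% to 58.5% in zQ175 mice, the lowest share being that of zQ175 replicate 5. In that mouse Chrm1 held 48.5%, and in zQ175 replicate 1 Chrm2 held 22.6%, more than in any other mouse. Shares sum to a whole, so a lower share of Chrm4 raises the others, and no test was made of them.

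**Figure D4:**
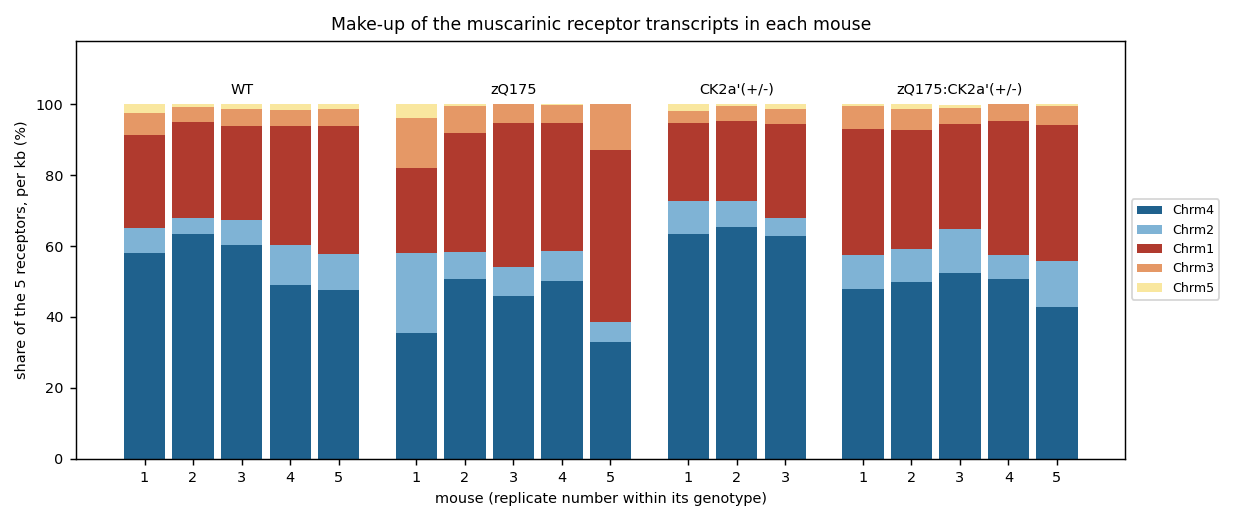
Share of each muscarinic receptor in the summed CPM per kb of the 5 (y axis, percent), 1 bar per mouse, by genotype. Chrm4, the lowest block of each bar, holds 47.6% to 63.3% in WT mice and 32.9% to 50.7% in zQ175 mice. The shares depend on the length of the gene models, which is 1440 bases for Chrm4.

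The genes most like each member over the 18 mice were taken as those with the highest Pearson correlation of log2 CPM among the other 20913 genes tested. For Chat these were Slc5a7 (r = 0.911), Dlx6 (r = 0.909) and Ctxn1 (r = 0.883), and for Slc5a7 they were Dach1 (r = 0.914), Chat and Arhgap33 (r = 0.902). Lhx8 was closest to Chat (r = 0.856), Tyrobp (r = 0.845) and Slc5a7 (r = 0.841). Chat and Slc5a7 thus named each other, whereas Lhx8 stood at rank 11 for Chat and at rank 21 for Slc5a7. Without zQ175 replicate 1, lowest in all 3 genes, r between Chat and Slc5a7 was 0.759 and that between Chat and Lhx8 was 0.691. Slc18a3 had another set, Ppp1r37 (r = 0.818), Abhd14a (r = 0.809) and Gm9945 (r = 0.784), and its r with Chat was 0.674, which put Chat at rank 59 among all genes for Slc18a3. Chrm3 was closest to Epha5 (r = 0.849), Mdga1 (r = 0.847) and Cadps2 (r = 0.825). Among the receptors, Chrm1 and Chrm2 were opposed, with r = -0.757 over the 18 mice and -0.649 without zQ175 replicate 1. These values are descriptions, over 18 libraries that differed in depth and in tissue markers, and no test was made of them.

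Other genes known from cholinergic neurons gave a mixed picture in zQ175 against WT mice. Of 9 such genes 1 passed FDR 0.1 by edgeR (1.10% of all genes), the endopeptidase Ecel1, which fell by 0.56 on the log2 scale (SE 0.144, adjusted p = 0.0946), and 7 of the 9 had a negative fold change. Without both doubted mice Ecel1 was at -0.35 (adjusted p = 0.337) and 0 of the 9 passed, though 2 had an unadjusted p under 0.05 (10.2% of all genes). The neurotrophin receptor Ngfr was next at -0.87 (SE 0.237, adjusted p = 0.105). Gbx2, a homeodomain factor that thalamic neurons also use, went the other way at 1.78 (SE 0.688, adjusted p = 0.248), and was at 0.04 (SE 0.489) without zQ175 replicate 1. Isl1, a homeodomain factor that acts with Lhx8 in specifying these neurons, was at 12.9 ± 4.23 CPM in zQ175 mice and 13.4 ± 1.27 CPM in WT mice (SD, n = 5 each). Isl1 and Gbx2 lie outside the rule for named genes and were chosen after their values were seen. The summed level of the 9 genes ranged from 59.3 to 80.4 CPM in zQ175, from 65.9 to 97.3 CPM in WT and from 74.2 to 90.6 CPM in zQ175:CK2a'(+/-) mice, with overlap. Between zQ175 and zQ175:CK2a'(+/-) mice 0 of the 9 passed FDR 0.1 by edgeR. At an unadjusted p under 0.05, 2 were lower in zQ175 mice (Ecel1 and Ngfr) and 1 was higher (Gbx2), against 6.27% of all genes, and without zQ175 replicate 1 the same count was 2 lower and 0 higher (5.68%).

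Of 9 genes of acetylcholine breakdown and choline handling, 0 passed in zQ175 against WT mice by edgeR, and 2 had an unadjusted p under 0.05, where 1.10% and 13.9% of all genes did. Bche, which encodes butyrylcholinesterase, was at 0.61 (SE 0.241, adjusted p = 0.260), and Prima1, the membrane anchor of acetylcholinesterase, at -0.40 (SE 0.176, adjusted p = 0.323). Chdh, a mitochondrial choline dehydrogenase, was at 1.17 (SE 0.272, adjusted p = 0.0775) in zQ175:CK2a'(+/-) against CK2a'(+/-) mice, where 0.593% of all genes passed. Mean Chdh levels were 16.25 CPM in zQ175:CK2a'(+/-), 7.21 CPM in CK2a'(+/-), 12.7 CPM in WT and 12.9 CPM in zQ175 mice. Of 16 nicotinic receptor subunits 8 were expressed enough to test and 0 passed in zQ175 against WT mice, with 1 at an unadjusted p under 0.05. The lowest adjusted p were those of Chrna5 at 2.05 (SE 0.924, adjusted p = 0.331) and Chrna2 at -1.67 (SE 1.18, adjusted p = 0.570), the latter at -2.90 without zQ175 replicate 5. Of 16 genes that act below muscarinic receptors 0 passed, with 3 at an unadjusted p under 0.05, all higher. These counts stand beside the same 13.9% of all genes. Kcnj6, a potassium channel opened through Gi, was at 1.10 (SE 0.381, adjusted p = 0.190), and Gnaq, the alpha subunit of Gq, at 0.23 (SE 0.0870, adjusted p = 0.239). Without both doubted mice these were 0.31 and 0.11, with 0 of the 16 at an unadjusted p under 0.05.

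**Figure D5:**
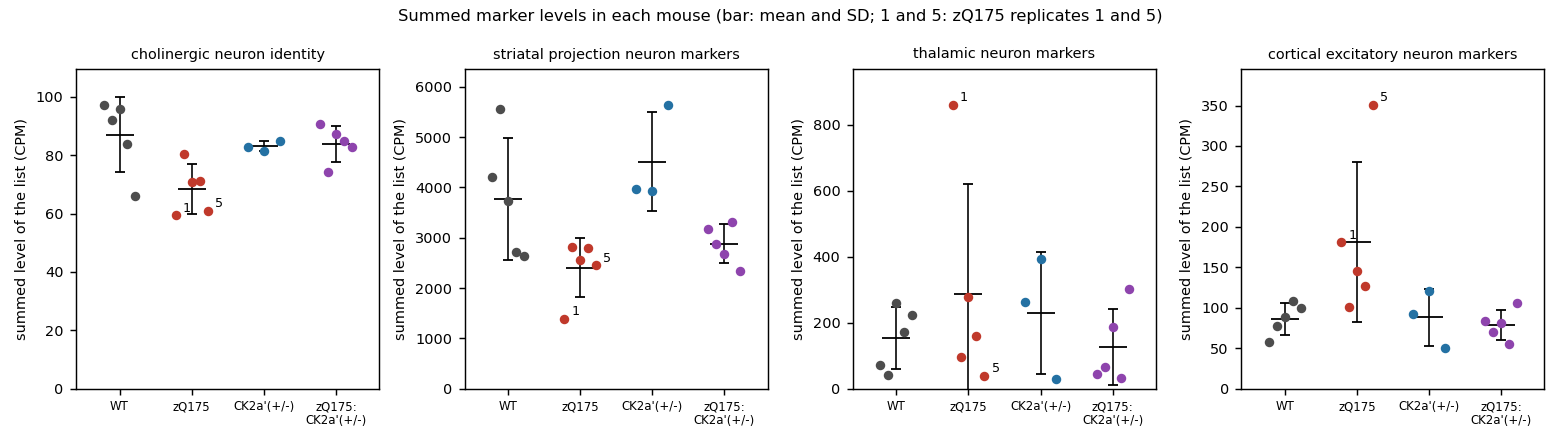
Summed level of 4 marker lists in CPM (y axes, from 0) in every mouse, by genotype, with the mean and SD. Thalamic markers reach 861 CPM in zQ175 replicate 1 and cortical markers 351 CPM in zQ175 replicate 5, the 2 numbered mice.

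Markers of other cells were examined beside these results, in a comparison in which 1.10% of all genes passed. Of 7 cortical excitatory neuron markers tested, 1 passed FDR 0.1 in zQ175 against WT mice by edgeR, Tbr1, which rose by 1.27 (SE 0.322, adjusted p = 0.0902), and all 7 had a positive fold change, with Slc17a7 at 1.61 (SE 0.488, adjusted p = 0.139). Without both doubted mice Tbr1 was at 1.28 (adjusted p = 0.245) and Slc17a7 at 0.81 (adjusted p = 0.570). The study listed both genes as differing between zQ175 and zQ175:CK2a'(+/-) mice, from libraries that include these zQ175 mice. Of 4 thalamic markers 0 passed, with Tcf7l2 at 1.19 (SE 0.640, adjusted p = 0.426) and Slc17a6 at 1.35 (SE 0.893, adjusted p = 0.538). These rested on zQ175 replicate 1, without which Tcf7l2 was at -0.04 (SE 0.515) and Slc17a6 at -0.14 (SE 0.812). The medial habenula, whose neurons also express Chat and Slc5a7, was covered by 4 markers, of which 3 were tested and 0 passed (Nwd2 at 0.92, adjusted p = 0.207, or 0.17 without both doubted mice, and Tac2 at -1.10, adjusted p = 0.529), with summed levels of 4.03 to 17.6 CPM over all mice. Basal forebrain and pallidal markers, another possible source of cholinergic RNA, had 0 of 4 passing (Gbx1 at -0.73, adjusted p = 0.501, and Npas1 at -0.52, adjusted p = 0.647, or -0.41 and -1.16 without both doubted mice) and summed to 20.4 to 120 CPM. The highest sum was that of zQ175 replicate 1. In zQ175 mice Zic1 reached 110 CPM, against at most 6.6 CPM for Nkx2-1, 2.86 CPM for Npas1 and 2.14 CPM for Gbx1. GABAergic interneuron markers had 0 of 6 passing, with 5 negative fold changes (Pvalb at -0.65, adjusted p = 0.348, and Sst at -0.35, adjusted p = 0.335). Their summed level was 164 CPM in zQ175 replicate 1 and 214 to 321 CPM in the other 17 mice. Sst was at -0.18 without that mouse, and Pvalb at -0.43 without both doubted mice. Of 11 glial and vascular markers 10 had a negative fold change, and Mbp, a myelin gene, fell by 0.58 (adjusted p = 0.0469), with -0.45 (adjusted p = 0.245) without both doubted mice. Choroid plexus markers were at 981 to 3101 summed CPM in WT replicates 1 and 3, CK2a'(+/-) replicate 1 and zQ175:CK2a'(+/-) replicate 2 and at 12.4 to 22.4 CPM in the other 14 mice, with 0 of 6 passing (Ttr at -7.24, adjusted p = 0.161, and Kcnj13 at -4.86, adjusted p = 0.261). The part of these tissue differences in the values of the 10 genes was not tested.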

How the data were processed

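Striatal RNA of 18 mice was sequenced, with 1 library per mouse. Per the labels and the paper's methods, the authors used Trimmomatic, then HISAT2 2.1.0 against GRCm38, and deposited raw counts per gene from Subread 1.6.2, without normalization. Their own test was DESeq2 with default settings. Whether counting used the strand is not given in the sources used here, so antisense overlaps could not be resolved. The deposited gene lengths are exon lengths in bases. Symbols came from GENCODE vM21 and were found for 55154 of 55421 identifiers. Total counts ranged from 13612381 to 22702547. The mice are separate animals. The labels give no sex, and the paper's methods give sex ratios that differ between genotypes.

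Counts were tested in R 4.3.3 with edgeR 4.0.16 (TMM, filterByExpr, quasi-likelihood test, 20914 genes) in 1 model of the 18 libraries that held genotype alone, at a Benjamini-Hochberg FDR of 0.1. Standard errors were derived from the fold change and its F statistic. Alternatives were DESeq2 1.42.0, DESeq2's size factors, no filter, a block for the replicate number, a fit restricted to the groups compared, a covariate for Xist, and leaving out each mouse. Leaving out zQ175 replicates 1 and 5 together, also with DESeq2 and without the filter, and the lists without these mice were chosen after seeing the data. The Slc18a3 to Chat ratio used a pseudocount of 0.5 counts and exact permutation tests (scipy 1.17.1). The named genes were the 10 members, the leading genes of each list by adjusted p in zQ175 against WT mice (at least 2, and any that passed FDR 0.1 in a comparison), and the 3 closest genes of 5 members. A result for 1 gene of the marker lists is not reported here. The members and lists were chosen with earlier results of these data known. For the 10 members, direction is given only for folds larger than their standard error, whereas counts over a list take the sign of every fold, however small. In simulated counts for zQ175 against WT, with a log2 change of 1 in 200 of 20914 genes, 143 were recovered.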

Additional observations from a re-analysis of the deposited data

Results flagged for a closer look

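A mouse far from the others of its group, by Dixon's test, was found in 3 of 30 groups of 5 mice, where chance flags about 1 in 20 groups. Chrm3 was at 12.4 CPM in zQ175:CK2a'(+/-) replicate 1, against 8.14 to 9.19 CPM in the other 4 mice. Chrm5 was at 1.45 CPM in WT replicate 1, against 0.510 to 0.749 CPM. It was also at 1.17 CPM in zQ175 replicate 1, against 0 to 0.174 CPM, in the mouse with the highest thalamic markers.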

How the results depend on the processing

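With all mice and edgeR's main settings, 0 of the 10 genes passed FDR 0.1 in each of the 6 comparisons. In zQ175 against WT mice DESeq2 with default settings called 3 and edgeR without the filter on low counts called 3 (Slc18a3, Chrm4 and Chat). In zQ175 against zQ175:CK2a'(+/-) mice each of these called 1, Slc18a3. Without zQ175 replicates 1 and 5 together, a choice made after seeing the data, DESeq2 called 0 in both comparisons and edgeR without the filter 1, Slc18a3, in both. In zQ175:CK2a'(+/-) against CK2a'(+/-) mice 1 gene, Chrm4, was called by DESeq2, without the filter, with only the groups compared, with the Xist level as covariate (0.359% of all genes) and without zQ175 replicates 1 and 5 together (1.07%). Leaving out each mouse in turn gave 0 to 1 calls in zQ175 against WT mice (1 without WT replicate 5 or zQ175:CK2a'(+/-) replicate 2, with 1.01% and 0.942% of all genes, and 0.00% to 2.82% over the 18 fits) and 0 to 1 in zQ175:CK2a'(+/-) against CK2a'(+/-) mice (1 without WT replicate 2, WT replicate 5 or zQ175 replicate 1, with 1.06%, 0.726% and 0.985% of all genes, and 0.0276% to 1.06% over the 18 fits). The cause was not tested. With the DESeq2 size factors in edgeR, 0 of the 10 genes passed in every comparison. The shares of all genes were then 1.07% in zQ175 against WT mice, 0.612% in zQ175:CK2a'(+/-) against CK2a'(+/-) mice and 0.0143% or less in the others.

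Of 60 fold changes, 26 were larger than their standard error, and these kept their direction under every alternative tried. The other 34 changed sign in 87 of 845 alternative values. The difference in the log2 ratio of Slc18a3 to Chat ranged from -0.43 to 0.02625 for zQ175 against WT mice (positive only without zQ175 replicate 2), from 0.16 to 0.45 for zQ175:CK2a'(+/-) against WT mice (lowest without zQ175:CK2a'(+/-) replicate 5), and from -0.78 to -0.32 for zQ175 against zQ175:CK2a'(+/-) mice when each mouse was left out.

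The labels do not say that replicate numbers pair the mice. Deviations of same-numbered mice correlated between -0.136 and 0.12 in 24 pairs, which cannot by itself exclude a pairing. With the replicate number as a block, 0 of the members passed FDR 0.1 in each comparison by edgeR. The share of all genes that passed was then 0.469% in zQ175 against WT mice and 0.0574% in zQ175:CK2a'(+/-) against CK2a'(+/-) mice. In each of the other comparisons it was 0.00478%. With this block Slc18a3 had a log2 fold change of -1.01 (adjusted p = 0.114 by edgeR) in zQ175 against WT mice. Depth limits Chrm5, at 0 to 29 counts, more than the other 9 genes.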
